A study of Mus musculus with 6 samples.

Results

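The signalling, granule and cytoskeleton genes of the megakaryocyte, the precursor cell of blood platelets, were followed in common myeloid progenitors of mouse fetal liver that lack the Gata2 -77 enhancer. The set holds 10 genes: the thrombin receptor genes F2r and F2rl2, Gucy1a1, Trpc6, Plek, Thbs1, Pf4, Selp, Rab27b and Tubb1. They were chosen by name, with earlier results of these data known. All 10 were found by Ensembl identifier among the 24815 genes of the deposited tables (Gucy1a1 is called Gucy1a3 in older annotation), and all 10 passed the filter on low counts. Mutant cells are labelled -77-/-, homozygous for loss of the enhancer, and were compared with wild-type (WT) cells. Both genotypes are C57BL/6 mice at embryonic stage E13.5, with no other allele or treatment given in the labels. There were 3 mutant libraries (C, D and Q) and 3 wild-type libraries (A, F and L) of RNA sequencing. The cells had been sorted as CD34+, c-kit+, Sca-1- and low for Fc receptor, without the lineage markers B220, CD3, CD4, CD5, CD8, Gr-1 and TER-119, and without CD48 and CD41. CD41, the product of Itga2b, is itself a megakaryocyte surface protein, so the gate set aside cells that carried it in both genotypes. The labels do not say how many embryos went into a library or whether libraries came from separate animals, so p-values measure the spread between these samples, which may be technical.

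Megakaryocytes prepare the parts of the platelet before platelets are shed. Thrombin cleaves protease-activated receptors on the platelet, which signal through G proteins to calcium release and protein kinase C, while nitric oxide and cyclic GMP damp the response. Alpha granules carry adhesive proteins and chemokines, dense granules carry small mediators such as serotonin and ADP, and a coil of microtubules keeps the platelet disc-shaped. GATA factors are known regulators of megakaryocyte genes, and GATA2 acts early in this series of progenitors.

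As sequence context for genes that were lower in the same libraries, the 250 bases before the transcription start are shown for 4 of them, from RefSeq on build GRCm38.p6. The table had 9 entries for 8 of the 10 genes. F2r and F2rl2 are the paired thrombin receptor genes, Gucy1a1 and F2rl2 are the only members of the 8 with a match to the GATA motif, and Pf4 is a granule gene without one. Capitals mark a match to AGATAA or TGATAA, and likewise AGATAG and TGATAG, on either strand, and all sequences run 5′ to 3′ towards the gene.
F2r, chr13:95618467-95618716, minus strand: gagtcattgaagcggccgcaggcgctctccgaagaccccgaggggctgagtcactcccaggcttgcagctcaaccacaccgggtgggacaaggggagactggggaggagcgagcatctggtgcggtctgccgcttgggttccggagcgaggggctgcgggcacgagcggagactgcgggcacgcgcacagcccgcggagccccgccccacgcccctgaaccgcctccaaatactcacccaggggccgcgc
F2rl2, chr13:95696670-95696919, plus strand: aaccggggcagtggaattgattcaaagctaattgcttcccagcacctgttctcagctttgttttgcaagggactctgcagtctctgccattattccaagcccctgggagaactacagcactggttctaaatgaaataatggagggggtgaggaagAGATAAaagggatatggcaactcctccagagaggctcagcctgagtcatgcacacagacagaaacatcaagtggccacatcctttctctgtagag
Gucy1a1, second start, chr3:82145074-82145323, minus strand: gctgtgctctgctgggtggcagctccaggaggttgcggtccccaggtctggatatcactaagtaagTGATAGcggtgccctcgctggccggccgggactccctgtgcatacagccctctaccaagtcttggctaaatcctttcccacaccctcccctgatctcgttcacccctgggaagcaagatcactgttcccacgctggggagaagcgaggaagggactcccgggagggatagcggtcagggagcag
Pf4, chr5:90772185-90772434, plus strand: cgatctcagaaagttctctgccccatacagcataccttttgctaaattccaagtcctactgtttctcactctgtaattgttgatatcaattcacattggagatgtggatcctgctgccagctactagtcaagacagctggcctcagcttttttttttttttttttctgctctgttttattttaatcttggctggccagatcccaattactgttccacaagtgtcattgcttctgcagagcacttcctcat
In F2rl2 the match began 95 bases before the start, and directly before it lay a match to GGAAG, the core recognised by ETS factors, without overlapping it. In Gucy1a1 the match began 184 bases before the second listed start, and the first listed start had none. Of all 32851 promoter windows of this length, 26.5% held such a GATA match and 64.1% held GGAAG on either strand, so a match is common. GGAAG was found for 6 of the 8 genes, and TGTGGT, a RUNX motif held by 4614 of the windows, for F2r alone. These matches describe letters in a window and do not show binding.

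Depth ran from 14800563 to 30596279 expected counts in mutant libraries and from 14473913 to 21509720 in wild-type libraries. Gata2 itself, the gene next to the deleted element, stood at 8.92, 16.5 and 17.8 CPM (counts scaled for depth to a common library size) in mutants C, D and Q, against 78.6, 57.4 and 63.9 CPM in wild types A, F and L. Its log2 change was -2.20 (edgeR adjusted p = 0.068), and -1.97 when mutant C was left out (adjusted p = 0.0019). Mutant C stood apart: its log2 CPM correlated with the other libraries across genes at 0.880 to 0.923, and the other 5 libraries with each other at 0.974 to 0.989. The mean gene length behind its reads was 1781 bases, against 2834 to 3124 bases in the other 5 libraries. Ribosomal protein genes took 21.8% of its counts, against 6.82% to 9.21% in the other 5, and mitochondrial genes 10.1%, against 3.54% to 5.80%. Results are therefore given with and without it, and the part of RNA quality in them was not tested. Of the gate markers, Cd34 lay between 323 and 752 TPM in mutant libraries (TPM is the deposited level scaled for gene length and depth). In wild type it lay between 585 and 654 TPM. Kit, the c-kit gene, was at 12.5, 106 and 87.4 TPM in mutants C, D and Q. In wild types A, F and L it was at 136, 123 and 113 TPM. Cd48, whose product was sorted against, was at 251, 201 and 220 TPM in mutants C, D and Q. In wild types A, F and L it was at 169, 185 and 186 TPM. Kit and Cd48 each had an edgeR adjusted p of 0.58. In CPM Cd34 stood at 1254, 998 and 1024 in mutants C, D and Q, against 685, 862 and 861 in wild types A, F and L (edgeR adjusted p = 0.58). In both units the groups were apart for Kit, with the mutant lower, and for Cd48, with the mutant higher. The 11 genes listed for the gate had a median log2 change of 0.12. That list mixes markers sorted for and markers sorted against, so its median does not show that the gate was alike in both genotypes. The 10 megakaryocyte markers used as a check summed to 68.7 to 163 TPM in mutant libraries and 213 to 250 TPM in wild type, with Gp1bb and Gp6 under 1 TPM in all 6 libraries.

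**Figure D1:**
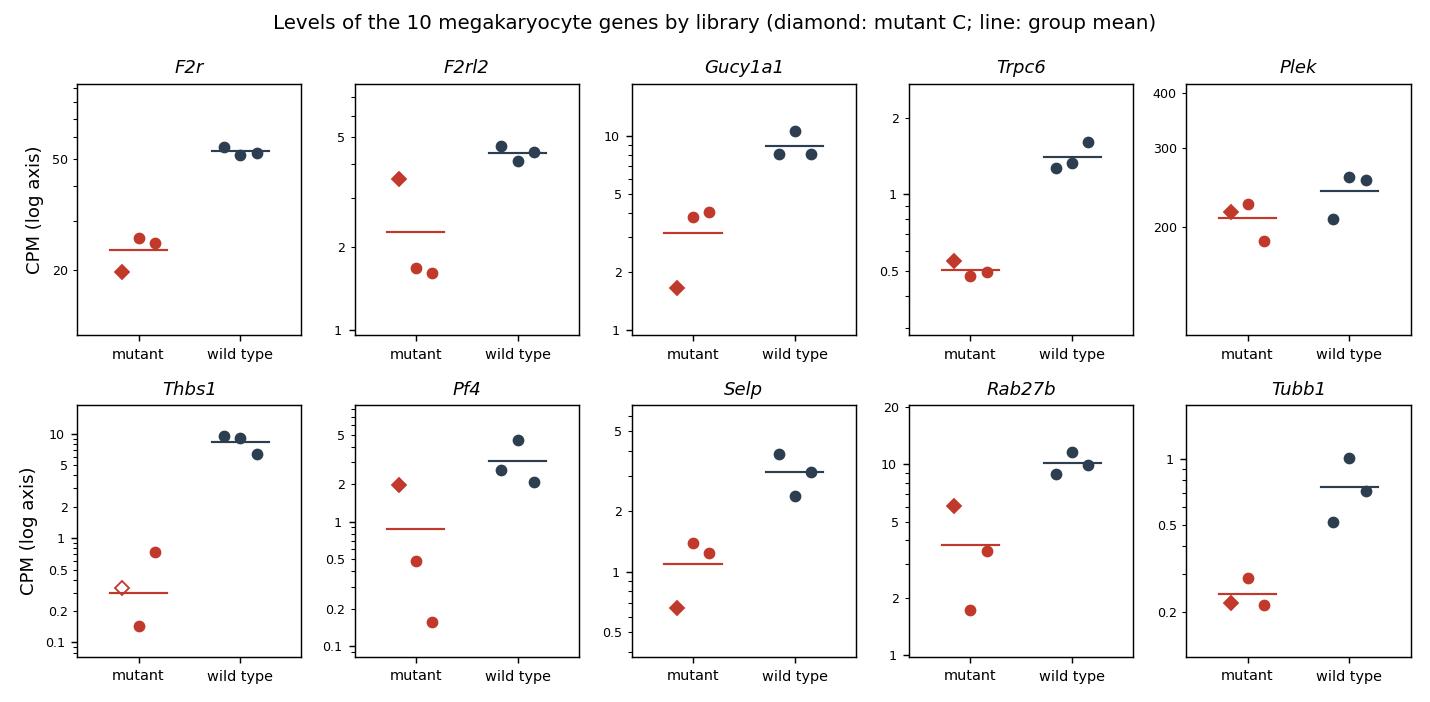
Each panel plots one gene's CPM by library on a log axis, mutant left and wild type right, with diamonds for mutant C and lines for group means. The open diamond for Thbs1 stands at the level of 3 counts because no count was seen in mutant C. In 9 of the 10 panels every mutant library lies below every wild-type library, and Plek is the exception. The same held for 11.4% of all 12222 tested genes.

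With all 6 libraries, 0 of the 10 genes passed an adjusted p of 0.05 in edgeR's quasi-likelihood test, where 0.155% of the 12222 tested genes passed. At an unadjusted p under 0.05, 9 of the 10 were lower in the mutant, the exception being Plek. Of all tested genes, 4.80% had such a p and 3.09% were also lower. DESeq2 called 3 of the 10 lower (F2r, Gucy1a1 and Thbs1), as it did 0.577% of all genes, and limma-voom called 0, with 0.254% of all genes. A fit with the gene length trend removed called F2r, as it did 0.409% of all genes, and limma on log2(TPM + 1) called Thbs1, where 0.155% of all genes passed. In CPM the groups did not overlap for 9 of the 10 genes, with the mutant lower, and 11.4% of all tested genes showed that. The median log2 change was -1.46 over the 10 genes and -0.02 over all tested genes. Because the 10 were chosen with earlier results of these data known, these contrasts with all genes describe the set and do not test it. Without mutant C, edgeR called 5 of the 10 genes lower, namely F2r, F2rl2, Gucy1a1, Rab27b and Thbs1, as it did 0.761% of 12614 tested genes. In that fit all 10 had a change below 0, and 9 had an unadjusted p under 0.05, as did 1306 of the 12614 genes. In these bulk samples, fewer cells that express a gene and less RNA per cell cannot be told apart. The 10 mast cell and basophil markers had a summed level of 11.97 to 13.91 TPM in mutant libraries and 133 to 162 TPM in wild type, most of it from Cpa3 and Hdc. Of the 5 tested, edgeR called 0 with all libraries (3 at an unadjusted p under 0.05, all lower in the mutant), DESeq2 called Cpa3, Ms4a2 and Hdc, and limma-voom Cpa3 and Hdc. The groups overlapped for the other tested markers, with log2 changes of 1.02 for Mcpt8 and -0.19 for Mitf. Gzmb, Tpsb2 and Cma1 of that list were at 0 in all libraries. Of the 10 erythroid markers, edgeR called Epor, the erythropoietin receptor gene, which was lower in the mutant (log2 change -3.05, edgeR adjusted p = 0.044), a call lost when any library other than mutant C was left out. Klf1, an erythroid factor gene, had a log2 change of -2.49 with the groups apart (edgeR adjusted p = 0.15, and 0.0035 when mutant C was left out). Hbb-y, a globin gene, went the other way with the groups apart (log2 change 3.07, edgeR adjusted p = 0.58). The groups overlapped in CPM for the other erythroid markers. The median log2 change of the whole erythroid list was -0.008. The part of mast cells, basophils and erythroid cells in the values below was not tested. Hepatoblast markers summed to 82.4 to 539 TPM in mutant libraries, highest in Q, and to 26.2 to 100 TPM in wild type. The 10 hepatoblast markers had a median log2 change of 2.89. With all libraries edgeR called 0 of them, and 8 had an unadjusted p under 0.05, all higher in the mutant. DESeq2 called Afp, Apoa1, Apoa2, Ttr and Ahsg, all higher, among 124 genes called in all, and limma-voom called 0. The part of such cells in the values below was not tested either.

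**Figure D2:**
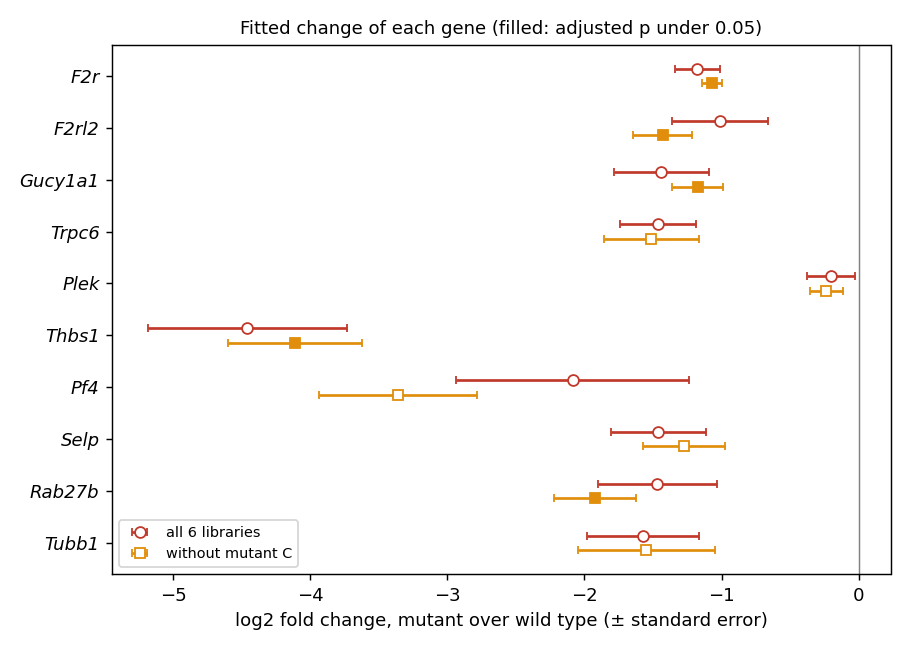
The log2 fold change of each gene, mutant over wild type, is drawn with its standard error for all 6 libraries (circles) and without mutant C (squares). Filled symbols pass an adjusted p of 0.05, which 0 genes do with all libraries and 5 do without mutant C. Thbs1 has the most negative value in both fits and Plek lies nearest to 0.

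Both thrombin receptor genes were lower in every mutant library. F2r encodes PAR1, the receptor through which thrombin activates human platelets (mouse platelets rely on PAR3 and PAR4 instead). F2r stood at 19.6, 26.1 and 24.98 CPM in mutants C, D and Q, against 55.5, 51.9 and 52.6 CPM in wild types A, F and L. The groups were far apart relative to the spread within each, and mutant C was the lowest. The mean was 23.6 ± 3.47 CPM in the mutant and 53.3 ± 1.89 CPM in wild type (SD, n = 3 each), a 2.26-fold lower level (log2 change -1.18, standard error 0.16, edgeR adjusted p = 0.076). Without mutant C the change was -1.07 (edgeR adjusted p = 0.0011), and over all 14 alternatives the adjusted p ran from 9.3e-07 (DESeq2) to 0.46.

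F2rl2 encodes PAR3, which on mouse platelets helps thrombin to cleave PAR4. Its level was 3.52, 1.67 and 1.61 CPM in mutants C, D and Q, against 4.65, 4.10 and 4.44 CPM in wild types A, F and L. Mutants D and Q lay well below the wild-type libraries and close to each other, while mutant C lay just under the lowest wild type. The log2 change was -1.01 with a standard error of 0.35 (edgeR adjusted p = 0.58), and -1.43 with a standard error of 0.22 without mutant C (edgeR adjusted p = 0.035, range over the alternatives 0.035 to 0.84). Without it F2rl2 was 2.69-fold lower. The gene lies on chromosome 13 (95696853 to 95702739, plus strand, mm10), within Iqgap2 on the opposite strand and over none of its exons, and 78366 bases from the end of F2r (95601803 to 95618487, minus strand). The strand setting of the counts is not known, so reads of unspliced Iqgap2 and of F2rl2 cannot be told apart. Iqgap2, a scaffold protein gene, stood at 134, 290 and 247 CPM in mutants C, D and Q and 254, 289 and 272 CPM in wild types A, F and L, and its change without mutant C was -0.02. F2rl1, the PAR2 gene of the same cluster, was below 0.3 CPM in all 6 libraries and was not tested.

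The PAR4 gene F2rl3, which lies outside that cluster, averaged 18.5 ± 3.86 CPM in the mutant and 13.7 ± 2.13 CPM in wild type, with every mutant library above every wild-type one (log2 change 0.43, edgeR adjusted p = 0.58). The ratio of F2r to F2rl3 within each library had a log2 of -0.22, 0.64 and 0.66 in mutants C, D and Q, against 2.30, 1.81 and 1.802 in wild types A, F and L. For F2rl2 over F2rl3 the log2 ratio averaged -3.11 ± 0.35 in the mutant and -1.63 ± 0.31 in wild type (SD, n = 3 each). Both ratios were lower in 3 of 3 mutant libraries. The exact two-sided permutation test gave p = 0.10 for each, the smallest p that 3 against 3 samples allow, and 0.125 after adjustment over 5 ratios. The 5 ratios reported were chosen after the values were seen.

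The wider list of thrombin receptor and G protein signalling genes had 24 tested genes, including F2r and F2rl2. With all 6 libraries edgeR called 0 of them (4 at an unadjusted p under 0.05, all lower in the mutant), DESeq2 called F2r and P2ry1 and limma-voom 0, and the median log2 change was -0.23. Without mutant C, edgeR called 3 lower: F2r, F2rl2 and P2ry1, the gene of an ADP receptor that couples to Gq. P2ry1 stood at 2.64, 4.49 and 5.33 CPM in mutants C, D and Q, against 10.9, 9.71 and 9.47 CPM in wild types A, F and L (log2 change -1.24, edgeR adjusted p = 0.39; when mutant C was left out -1.03, adjusted p = 0.039). Prkca, a protein kinase C gene, averaged 9.41 ± 2.94 CPM in the mutant and 17.2 ± 0.71 CPM in wild type (edgeR adjusted p = 0.58). Plcb2, a phospholipase C gene downstream of these receptors, averaged 55.9 ± 19.0 CPM in the mutant and 92.2 ± 16.5 CPM in wild type (edgeR adjusted p = 0.58). The G protein genes Gnaq, Gna12, Gna13 and Gnai2 had log2 changes of -0.39, -0.31, -0.31 and 0.19, with edgeR adjusted p between 0.58 and 0.61.

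Gucy1a1 encodes the alpha subunit of soluble guanylyl cyclase, the nitric oxide receptor that makes cyclic GMP. The gene (chromosome 3, 82092427 to 82145789, minus strand) stood at 1.65, 3.82 and 4.06 CPM in mutants C, D and Q, against 8.03, 10.6 and 8.05 CPM in wild types A, F and L. Every mutant library was below every wild-type library, and mutant C was the lowest. The mean was 3.18 ± 1.33 CPM in the mutant and 8.89 ± 1.47 CPM in wild type (SD, n = 3 each), 2.71-fold lower (log2 change -1.44, standard error 0.35, edgeR adjusted p = 0.48). Without mutant C it was 2.26-fold lower (edgeR adjusted p = 0.045), and the alternatives ran from 0.030 (DESeq2) to 0.84.

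**Figure D3:**
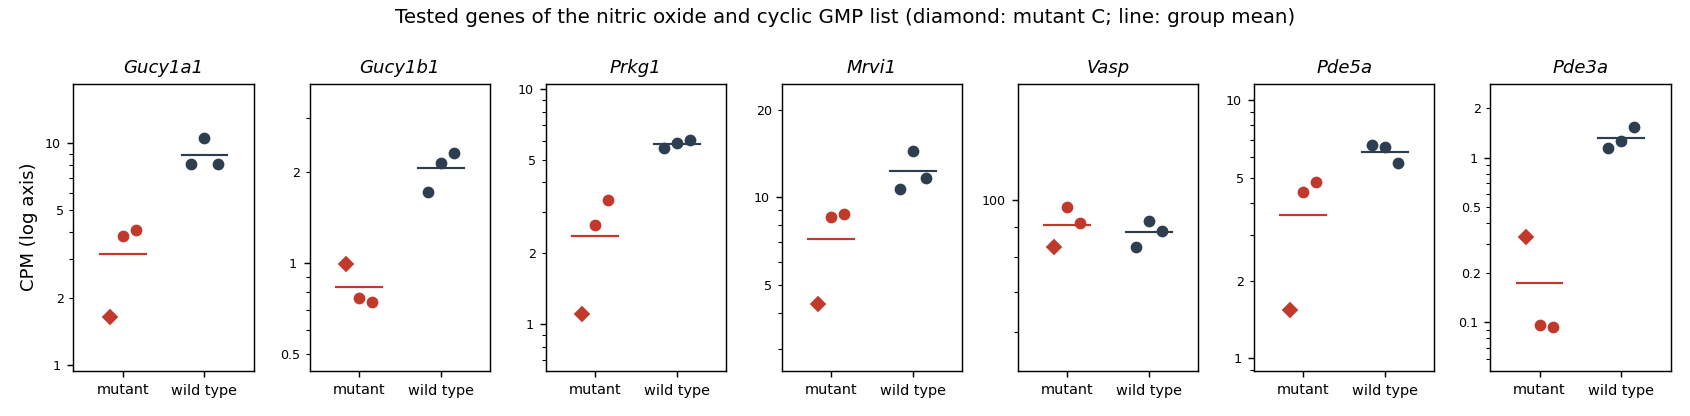
Each panel plots the CPM of a tested gene of the nitric oxide and cyclic GMP list by library on a log axis, mutant left and wild type right, with diamonds for mutant C and lines for group means. The groups are apart for 6 of the 7 genes, with the mutant lower, and overlap for Vasp. Of all 12222 tested genes, 11.4% had the groups apart with the mutant lower.

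The rest of the nitric oxide and cyclic GMP list lay mostly in the same direction. Of its 7 tested genes, Gucy1a1 included, edgeR called 0 with all libraries, where 5 were lower in the mutant at an unadjusted p under 0.05. DESeq2 called Gucy1a1 and Pde3a, and limma-voom 0. The median log2 change of the 7 was -1.24, and -0.96 without mutant C, when edgeR called Gucy1a1 and Pde3a lower. The 6 genes other than Gucy1a1 had medians of -1.01 and -0.73 in these fits. With all libraries, 4 of the 6 were lower at an unadjusted p under 0.05. Pde3a, a phosphodiesterase that breaks down cyclic nucleotides, stood at 0.330, 0.0956 and 0.0930 CPM in mutants C, D and Q, against 1.15, 1.26 and 1.54 CPM in wild types A, F and L. These values rest on 2.76, 2 and 2.84 expected counts in mutants C, D and Q, against 29.2, 20.0 and 25.5 in wild types A, F and L. The log2 change was -3.20 with all libraries (standard error 0.50, edgeR adjusted p = 0.12) and -3.73 when mutant C was left out (adjusted p = 0.014).

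Gucy1b1 encodes the beta subunit that pairs with the Gucy1a1 product. It stood at 0.991, 0.765 and 0.744 CPM in mutants C, D and Q, against 1.71, 2.14 and 2.31 CPM in wild types A, F and L (log2 change -1.32, standard error 0.28, edgeR adjusted p = 0.33). The log2 ratio of Gucy1a1 to Gucy1b1 averaged 1.84 ± 0.95 in the mutant and 2.11 ± 0.27 in wild type (exact two-sided permutation p = 1, n = 3 each), with mutant C at 0.74 and mutants D and Q at 2.32 and 2.45. Prkg1, the cyclic GMP-dependent kinase gene, averaged 2.37 ± 1.16 CPM in the mutant and 5.84 ± 0.22 CPM in wild type (log2 change -1.24, edgeR adjusted p = 0.58). Mrvi1, now named Irag1, whose product is a substrate of that kinase on calcium stores, averaged 7.19 ± 2.51 CPM in the mutant and 12.3 ± 1.96 CPM in wild type (edgeR adjusted p = 0.58). Vasp, an actin regulator that the kinase phosphorylates, averaged 90.6 ± 6.93 CPM in the mutant and 88.1 ± 4.44 CPM in wild type. Gucy1a2 and Nos3 were below the filter, and Pde2a matched no gene in the tables.

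Trpc6 encodes a cation channel opened by diacylglycerol, which lets calcium and sodium into platelets. The gene spans 8544142 to 8680741 on chromosome 9 (plus strand). Its counts were low: 5, 10 and 16 in mutants C, D and Q, against 32, 21 and 27 in wild types A, F and L. Scaled for depth this is 0.551, 0.478 and 0.496 CPM in mutants C, D and Q, against 1.27, 1.32 and 1.598 CPM in wild types A, F and L. The libraries of a group lay close together, and the groups did not overlap. The level was 2.76-fold lower (log2 change -1.46, standard error 0.28, edgeR adjusted p = 0.23). Leaving out mutant C gave a 2.85-fold lower level (edgeR adjusted p = 0.16, range over the alternatives 0.16 to 0.77). Poisson intervals that cover counting error only run from 1.62 to 11.7 for the 5 counts of mutant C. For the 27 counts of wild type L they run from 17.8 to 39.3. The intervals of mutants D (4.795 to 18.39 counts) and Q (9.15 to 25.98 counts) overlap that of wild type L. All these intervals are in counts before scaling for depth, so the gap between mutant C and wild type L does not show a gap in level.

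Among the 13 tested genes of calcium entry and store release, Trpc6 was the only gene at an unadjusted p under 0.05, and edgeR called 0 with all libraries. Without mutant C edgeR called 0 of 14, and 2 had an unadjusted p under 0.05, as did 1306 of all 12614 genes tested there. In this list 0 genes were called by DESeq2 or limma-voom, which gave Trpc6 adjusted p values of 0.21 and 0.22. The list's median was -0.30. Of the channel genes that open on store depletion, Orai2 averaged 44.9 ± 7.89 CPM in the mutant and 57.3 ± 1.798 CPM in wild type (log2 change -0.35). Saraf, which restrains that entry, had a log2 change of 0.53, and P2rx1, an ATP-gated channel gene, 0.32, each at an edgeR adjusted p of 0.58. Stim1 and Orai1 had changes of -0.17 and 0.30.

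Plek (chromosome 11, 16971206 to 17052381, minus strand) encodes pleckstrin, the main protein kinase C substrate of platelets, which white blood cells also make. It was the most abundant of the 10 genes, at 216, 225 and 185 CPM in mutants C, D and Q, against 208, 258 and 254 CPM in wild types A, F and L. The groups overlapped, since mutants C and D lay above wild type A. The log2 change was -0.20 with a standard error of 0.18 (edgeR adjusted p = 0.60), and it turned to 0.09 when a gene length trend was removed from each library. The TPM values were 34.6, 106 and 78.0 TPM in mutants C, D and Q, against 112, 124 and 119 TPM in wild types A, F and L, and there the groups did not overlap. The median of all tested genes was shifted by -0.50 on the log2(TPM + 1) scale.

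Thbs1 encodes thrombospondin 1, an adhesive glycoprotein of alpha granules. It stood at 0, 0.143 and 0.744 CPM in mutants C, D and Q, against 9.50, 9.21 and 6.45 CPM in wild types A, F and L. These are 0, 3 and 24 counts in the mutant libraries and 239, 146 and 109 counts in wild type, and the floor of 3 counts set for a count of 0 is 0.330 CPM in mutant C, where the exact two-sided Poisson interval reaches 3.69 counts. Mutant Q was the highest of the mutant libraries and still far below the lowest wild type. The fitted log2 change was -4.46, the largest of the 10, with a standard error of 0.73 (21.98-fold lower, edgeR adjusted p = 0.13). Without mutant C it was -4.11 (edgeR adjusted p = 0.012), without mutant Q -6.34, and the adjusted p over the alternatives ran from 4.6e-08 (DESeq2) to 0.69. The coordinates of Thbs1 are chromosome 2, 118111876 to 118127133, plus strand. The overlapping antisense transcript Gm29233 had no counts in any library.

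Pf4 (chromosome 5, 90772435 to 90773383, plus strand) encodes platelet factor 4, a chemokine stored in alpha granules. Its level was 1.98, 0.478 and 0.155 CPM in mutants C, D and Q, against 2.62, 4.54 and 2.07 CPM in wild types A, F and L. Mutant C nearly touched wild type L, while mutants D and Q were far lower. At 586 bases Pf4 is the shortest of the 10 genes, and reads of mutant C came more from short genes than those of the other libraries. With a gene length trend removed, the log2 change was -3.17 with a standard error of 0.54 (edgeR adjusted p = 0.095), against -2.09 with a standard error of 0.85 without that step (adjusted p = 0.58). Leaving out mutant C gave -3.36, which is 10.3-fold lower (edgeR adjusted p = 0.056). Leaving out mutant Q gave -1.42 and wild type F -1.65, and no alternative brought Pf4 past the threshold (adjusted p from 0.056 to 0.84). The neighbouring platelet chemokine gene Ppbp stood at 1.32, 0.0478 and 0.124 CPM in mutants C, D and Q, against 0.795, 0.378 and 0.118 CPM in wild types A, F and L, and was below the filter.

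Selp (chromosome 1, 164115264 to 164150026, plus strand) encodes P-selectin, which reaches the platelet surface when alpha granules fuse with the membrane and which endothelial cells also make. It stood at 0.661, 1.39 and 1.24 CPM in mutants C, D and Q, against 3.86, 2.40 and 3.14 CPM in wild types A, F and L. The groups did not overlap, and mutant C was again the lowest. The mean level was 1.096 ± 0.384 CPM in the mutant and 3.13 ± 0.73 CPM in wild type (SD, n = 3 each), 2.75-fold lower (log2 change -1.46, standard error 0.34, edgeR adjusted p = 0.45, range over the alternatives 0.068 to 0.84). Endothelial markers summed to 18.5 to 56.7 TPM in mutant libraries and 60.5 to 69.8 TPM in wild type, while Cdh5, Cldn5 and Stab2 of that list stayed under 1 TPM in all 6 libraries. The 8 tested endothelial markers had a median log2 change of -0.18, and edgeR called 0 of them. In CPM the groups were apart for Pecam1, Kdr and Tek, with the mutant lower, and for Emcn, with the mutant higher (log2 change 0.74). For the other tested markers, Tie1 among them (0.03), the groups overlapped. The part of such cells in the Selp values was not tested.

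Most other genes of the alpha granule list had smaller differences than these 3. Among 18 tested genes, these 3 included, edgeR called Treml1 with all libraries, DESeq2 called Thbs1, Vwf and Treml1, and limma-voom Vwf and Treml1. Without mutant C, edgeR called Treml1, Thbs1 and Vwf out of 19, all lower in the mutant. The list's median was -0.22, and -0.13 without mutant C. Treml1, a receptor stored in platelet alpha granules, fell to 0.330, 0.669 and 0.372 CPM in mutants C, D and Q, against 4.81, 5.04 and 5.45 CPM in wild types A, F and L (10.8-fold, edgeR adjusted p = 0.032). That call was lost when any library other than mutant C was left out. Vwf, the gene of von Willebrand factor, averaged 0.613 ± 0.148 CPM in the mutant and 3.51 ± 0.72 CPM in wild type (edgeR adjusted p = 0.054, and 0.013 without mutant C). F5, coagulation factor V, averaged 3.94 ± 2.04 CPM in the mutant and 7.93 ± 0.34 CPM in wild type (edgeR adjusted p = 0.58). Of the genes needed to build alpha granules, Nbeal2, Vps33b and Vipas39 had log2 changes of -0.47, -0.10 and 0.13 (edgeR adjusted p from 0.61 to 0.67).

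Rab27b encodes a small GTPase that brings dense granules to the platelet membrane. It stood at 6.06, 1.72 and 3.53 CPM in mutants C, D and Q, against 8.91, 11.6 and 9.95 CPM in wild types A, F and L. All mutant libraries were below the wild-type libraries, with mutant C the nearest to them. The log2 change was -1.47 with a standard error of 0.43 (2.77-fold lower, edgeR adjusted p = 0.58), and -1.92 with a standard error of 0.30 without mutant C (3.79-fold, adjusted p = 0.039, range over the alternatives 0.039 to 0.84). The tables list 3 transcripts of Rab27b (chromosome 18, 69979131 to 70141605, minus strand), and the length assigned to the gene ran from 3196 to 3317 bases in mutant libraries and from 3168 to 3564 bases in wild type, so the groups overlapped in transcript length.

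The closest relative, Rab27a, which serves granule release in many blood cells, averaged 93.0 ± 7.29 CPM in the mutant and 92.5 ± 5.10 CPM in wild type (log2 change 0.01, edgeR adjusted p = 0.98). The log2 ratio of Rab27b to Rab27a averaged -4.80 ± 1.02 in the mutant and -3.20 ± 0.13 in wild type, lower in 3 of 3 mutant libraries (exact two-sided permutation p = 0.10, the smallest allowed with n = 3 each, and 0.125 adjusted over the 5 ratios). In the dense granule list of 25 tested genes edgeR called 0 with all libraries, where 3 were lower at an unadjusted p under 0.05. Slc18a2 was called by both DESeq2 and limma-voom. Without mutant C edgeR called 3, namely Rab27b, Rab38 and Slc18a2, all lower. Rab38, a GTPase gene of lysosome-related organelles, stood at 31.7, 10.9 and 12.4 CPM in mutants C, D and Q, against 19.4, 22.8 and 22.3 CPM in wild types A, F and L, so that its call rests on leaving out mutant C. Slc18a2, the monoamine transporter that fills dense granules and which mast cells also use, averaged 4.75 ± 1.06 CPM in the mutant and 19.6 ± 3.72 CPM in wild type (edgeR adjusted p = 0.054, and 0.0065 without mutant C). Stx11, a membrane fusion protein gene, averaged 1.498 ± 0.617 CPM in the mutant and 3.02 ± 0.62 CPM in wild type (edgeR adjusted p = 0.58). Dtnbp1, a subunit gene of a complex that sorts cargo to these organelles, had a log2 change of 0.74, with 142, 55.7 and 60.9 CPM in mutants C, D and Q, against 45.8, 55.7 and 53.2 CPM in wild types A, F and L.

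Tubb1 (chromosome 2, 174450695 to 174457882, plus strand) encodes the beta tubulin of the platelet's microtubule coil and is switched on late in megakaryocytes. It was near the detection limit, with 2, 6 and 7 counts in mutants C, D and Q, against 13, 16 and 12 counts in wild types A, F and L. In CPM that is 0.220, 0.287 and 0.217 in mutants C, D and Q, against 0.517, 1.01 and 0.710 in wild types A, F and L, and the groups did not overlap. The log2 change was -1.57 with a standard error of 0.41 (2.98-fold lower, edgeR adjusted p = 0.58), and over the alternatives the adjusted p ran from 0.30 to 0.84. Its Poisson interval runs from 0.242 to 7.22 counts in mutant C and from 6.20 to 20.96 counts in wild type L, so that these libraries overlap in counting error before scaling for depth.

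The common beta tubulin gene Tubb5 averaged 1619 ± 167 CPM in the mutant and 1490 ± 53.4 CPM in wild type (log2 change 0.12, edgeR adjusted p = 0.74). The log2 ratio of Tubb1 to Tubb5 was lower in 3 of 3 mutant libraries, with a mean of -12.7 ± 0.28 in the mutant and -11.0 ± 0.43 in wild type (exact two-sided permutation p = 0.10, the smallest allowed with n = 3 each, and 0.125 adjusted over the 5 ratios). In the tubulin and platelet cytoskeleton list of 23 tested genes edgeR called 0 with all libraries, where 2 were lower and 1 was higher at an unadjusted p under 0.05. Here 0 genes passed in DESeq2 or limma-voom, and the median was 0.19. Without mutant C Tuba8, an alpha tubulin gene, was called lower (log2 change -1.04, edgeR adjusted p = 0.012). It stood at 14.8, 8.80 and 8.87 CPM in mutants C, D and Q, against 16.3, 18.5 and 19.4 CPM in wild types A, F and L. Tuba1a averaged 61.6 ± 34.2 CPM in the mutant and 30.6 ± 4.54 CPM in wild type, and Tubb2b had a log2 change of 0.89, both at an edgeR adjusted p of 0.58. The motor and filament genes Myh9 and Flna had changes of -0.31 and -0.28, and 0.02 and 0.00 without mutant C.

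**Figure D4:**
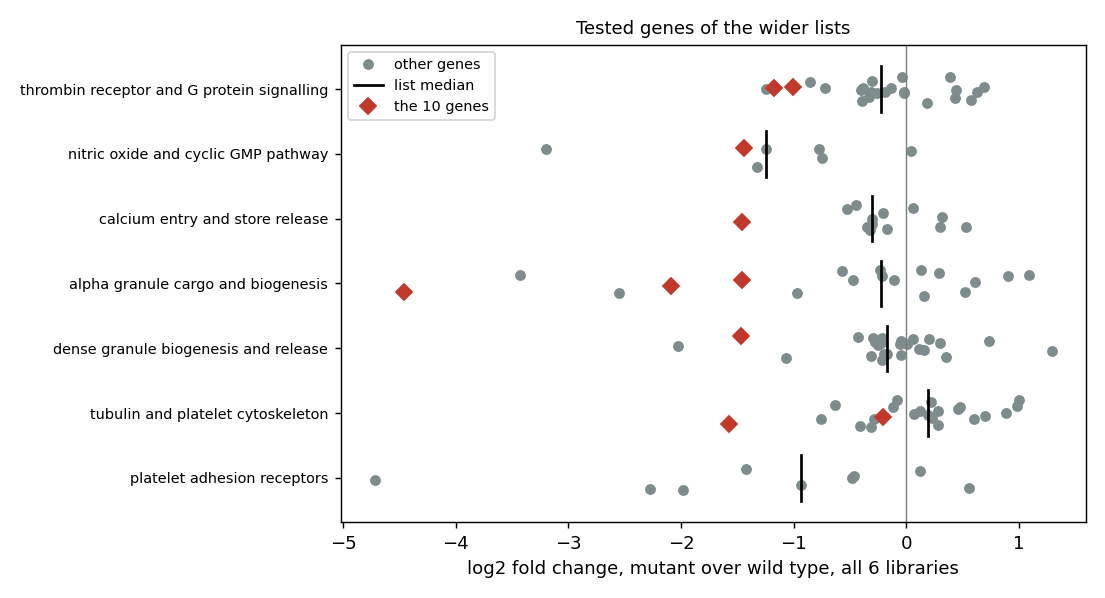
Each point is the log2 fold change, mutant over wild type with all 6 libraries, of a tested gene in one of 7 lists, with red diamonds for the 10 genes described here and black bars for list medians. The diamonds lie left of the median of their list, and the bars of the cyclic GMP list (-1.24) and the platelet adhesion receptors (-0.93) lie farthest left.

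Across the 7 lists, 134 genes were present in the tables and 119 were tested. With all 6 libraries edgeR called 3 of the 119 (Itga2b, Gp5 and Treml1, all lower in the mutant), where 0.155% of all 12222 tested genes passed. Without mutant C it called 16 of 121, all lower, as it did 0.761% of all 12614 genes tested there. Of these 16, 5 belong to the 10 genes: F2r, F2rl2, Gucy1a1, Rab27b and Thbs1. As a neighbouring group, the platelet adhesion receptors had 9 tested genes and a median of -0.93, with 2 called (Itga2b and Gp5) and, without mutant C, 4 called (Itga2b, Itgb3, Gp1ba and Gp5). Itga2b, the gene of CD41, against which the cells were sorted, fell to 7.82, 7.94 and 8.12 CPM in mutants C, D and Q, against 37.4, 26.2 and 30.7 CPM in wild types A, F and L (edgeR adjusted p = 0.032). When any library other than mutant C was left out, edgeR called 0 genes of all 7 lists, so the calls of Itga2b and Gp5 were lost as well. None of the adhesion receptors is among the 10 genes, and the difference between these groups of genes was not tested.

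By level, the deposited TPM values, which correct for gene length, placed Plek first and F2r second in both genotypes. F2r averaged 10.6 ± 5.91 TPM in the mutant and 32.0 ± 3.64 TPM in wild type, and its library values did not overlap with those of Plek or Pf4 in either. In the mutant the next were Pf4 (1.47 ± 0.93 TPM), Rab27b (1.35 ± 0.47 TPM), F2rl2 (1.09 ± 0.18 TPM) and Gucy1a1 (1.09 ± 0.75 TPM), whose ranges overlapped from neighbour to neighbour. In wild type the next were Pf4 (10.9 ± 4.37 TPM), Rab27b (5.92 ± 0.55 TPM), Gucy1a1 (3.77 ± 0.56 TPM) and F2rl2 (3.49 ± 0.47 TPM). There Pf4 and Rab27b did not overlap with their neighbours, while Gucy1a1, F2rl2, Thbs1, Selp, Tubb1 and Trpc6 each overlapped with the next. Thbs1 held rank 10 in the mutant (0.0867 ± 0.110 TPM) and rank 7 in wild type (2.85 ± 0.73 TPM). The 9 genes other than Plek together made up 8.85, 21.9 and 19.1 TPM in mutants C, D and Q, against 67.2, 66.2 and 55.0 TPM in wild types A, F and L.

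The genes with the most similar pattern were sought among 11381 others, by the Euclidean distance of log2 CPM, centred on the wild-type mean, over the 6 libraries. For Trpc6 the nearest was Gucy1b1 (distance 0.298), followed by Cnr2, a cannabinoid receptor gene (0.317). Gucy1a1 had Clcn2, a chloride channel gene (0.445), and Prkg1 (0.466). For F2r they were Diras2 (0.3002) and Cnr2 (0.315), and for F2rl2 the nearest was Stx11 (0.382). Rab27b was nearest to Smim5 (0.673) and Myct1 (0.757), and Selp to Bcl3 (0.452) and Itga2 (0.498), the gene of a collagen receptor chain. Tubb1 was nearest to Ctnnd2 (0.534) and Itga1 (0.561), and Plek to Siae (0.187) and Eid2b (0.200). Thbs1 and Pf4 had no close match: their nearest genes were Il1rl1 (1.89) and Etl4 (2.11) for Thbs1, and St8sia6 (1.51) and Klf1 (1.54), the erythroid factor gene, for Pf4. These distances describe the 6 libraries and were not tested.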

How the data were processed

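RNA sequencing of 3 mutant and 3 wild-type libraries was analysed from the authors' gene tables. Build mm10 and the tools RSEM 1.2.18, Bowtie 1.1.1 and CASAVA 1.8.2 are listed in the submitters' processing notes. The sources used here give no annotation release, read layout or strand setting. Expected counts (reads assigned by RSEM, not normalized) were deposited by the authors, as were TPM values (corrected for length and scaled per library) and FPKM values, per the file headers, of which only library totals were taken. Gene lengths in bases are the deposited length column. Names came from a table that matched 24448 of 24815 identifiers; positions are GENCODE M21 (same build). RSEM can split reads between similar or overlapping genes.

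Counts were rounded and fitted with edgeR 4.0.16 (R 4.3.3): filterByExpr (minimum count 10), TMM, quasi-likelihood F test, Benjamini-Hochberg adjustment over all genes tested, threshold 0.05. Each standard error is the size of the log2 change over the root of its F statistic. CPM values use TMM factors. Ratios between genes are of CPM. Alternatives were other scalings, no filter, DESeq2 1.42.0, limma-voom and limma 3.58.1 on log2(TPM + 1) and log2(TPM + 0.1), an offset for the gene length trend, and each library left out. The code was tested on simulated data.

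The members, lists and tests were chosen with earlier results of these data known. Named genes are all members, per wider list the 3 others with the smallest p and those behind a count of 5 or fewer, and per member the 2 nearest genes by distance (prior count 2 for log2 CPM). One of these nearest genes is not reported here. F2rl1, F2rl3, Iqgap2, Ppbp, Gm29233, Rab27a, Tubb5, the G protein genes, Vasp, Stim1, Orai1, Nbeal2, Vps33b, Vipas39, Mrvi1, Gucy1a2, Nos3, Myh9 and Flna were added for their position or family after values were seen. Marker lists were also made for erythroid, macrophage and mesenchymal cells. The summed erythroid level, mostly of globin genes, was 804 to 2255 TPM in mutant and 1249 to 2543 TPM in wild-type libraries. The macrophage level was 231 to 324 TPM in mutant and 306 to 339 TPM in wild-type libraries. The mesenchymal level was 3.09 to 14.7 TPM in mutant and 17.0 to 20.1 TPM in wild-type libraries, mostly from Pdgfrb and Hgf. The other 8 of the 10 mesenchymal markers were under 1 TPM in all libraries, so these sums do not show that mesenchymal cells were present. Intervals are exact Poisson intervals at 95% and, like the floor of 3 counts, cover counting error only.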

Additional observations from a re-analysis of the deposited data

How the results depend on the processing

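With all 6 libraries edgeR called 0 of the 10 genes, 3 of the wider lists and 19 genes in all. Leaving out mutant C gave 5, 16 and 106, where the 16 include the 5. Leaving out any other library gave 0 of each, so the ranges were 0 to 5, 0 to 16 and 0 to 106. Without the low count filter the lists had 5 calls and all genes 36. DESeq2 called 3 of the 10 genes, 11 of the lists and 124 genes in all, and limma-voom 0, 5 and 32. On log2(TPM + 1) 1 of the 10 genes passed (Thbs1), and on log2(TPM + 0.1) the lists had 1 call and all genes 11. With an offset for the gene length trend 1 of the 10 genes (F2r), 5 of the lists and 54 genes in all passed. The cause of these differences was not tested. Of the 10 genes, 9 kept a change below 0 under all 14 alternatives, and Plek turned to 0.086 with the gene length offset. No paired analysis was possible because the replicate letters differ between the genotypes. Depth limits Tubb1 and Trpc6, with 7 and 16 counts at most in a mutant library.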
